A study of Mus musculus with 6 samples.

Results

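The Ly6 genes encode small surface proteins, most of them held in the outer membrane by a glycosylphosphatidylinositol (GPI) anchor, and Ly6C is the antigen by which the 2 cell populations of this study were separated. The genes followed here are Ly6c1, Ly6a, Ly6d, Ly6e, Ly6i and Ly6k, chosen as every array probe whose annotated gene symbol, or a synonym of it, is one of these 6 names. The annotation held 8 such probes, of 45281 on the array, for 5 of the 6 genes, and none of them is named for Ly6a, so Ly6a is not analysed here. The Ly6C high population, monocyte-like precursors of granulocytes (MLPG), had 3 arrays, and it is set against the Ly6C low population, granulocytic progenitors (GP), with 3 arrays. Both came from mouse bone marrow, and biotin-labelled copies of their total RNA were hybridised to Illumina bead arrays, each sample alone. The labels used here name no strain, genotype, age or treatment of the mice. They do not say whether the replicates are separate animals either, so the p-values speak of the spread among these arrays, part of which may be technical.

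In the mouse, the antigen Ly6C is made from a pair of neighbouring genes, Ly6c1 and Ly6c2. Classical monocytes carry much of it, and neutrophil lineage cells carry less. Several Ly6 genes are known to respond to interferon. The relatives have their own tissues: Ly6a encodes stem cell antigen 1, Ly6d marks lymphoid progenitors and B cells, Ly6e is expressed in many blood cells, and Ly6k is best known from the testis.

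The 6 member genes lie in 1 cluster on chromosome 15 in the RefSeq annotation of GRCm38.p6, together with Ly6c2 and Ly6g, which encodes the granulocyte antigen Ly6G. The array annotation names 1 probe for Ly6c1 and 0 for Ly6c2 or Ly6g. Probe sequences were not used here, so whether the Ly6c1 probe also reads Ly6c2 RNA cannot be told apart, and its value is that of the probe named Ly6c1. RefSeq promoter windows, each from 250 bases before to 50 bases after a transcript start, were listed for 1 of the 6 members. Those of Ly6c1 (chr15:75048788-75049087, minus strand) and Ly6c2 (chr15:75111922-75112221, minus strand) are shown because both genes encode the sorted antigen. Each of these genes had 2 windows listed, and only that with the most upstream start was used. Capitals mark 2 motifs, TATAAA and the ETS-type core GAGGAAG.
Ly6c1: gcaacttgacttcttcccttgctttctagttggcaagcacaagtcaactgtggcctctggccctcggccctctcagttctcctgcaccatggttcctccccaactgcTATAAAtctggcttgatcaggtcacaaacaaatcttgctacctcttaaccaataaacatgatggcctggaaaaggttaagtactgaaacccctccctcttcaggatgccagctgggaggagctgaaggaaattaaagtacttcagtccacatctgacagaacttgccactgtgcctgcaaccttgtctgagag
Ly6c2: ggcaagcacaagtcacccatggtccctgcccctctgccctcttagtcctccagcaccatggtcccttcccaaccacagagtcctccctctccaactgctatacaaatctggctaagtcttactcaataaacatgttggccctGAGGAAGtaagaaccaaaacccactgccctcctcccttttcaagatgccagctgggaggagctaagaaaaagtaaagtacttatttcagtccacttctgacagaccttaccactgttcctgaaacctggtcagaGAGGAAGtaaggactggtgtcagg
Over the 282 aligned positions where the windows overlap, 73.8% were identical. The Ly6c1 window had 1 TATAAA, beginning 143 bases before the start, and no GAGGAAG. The Ly6c2 window had 2 GAGGAAG and no TATAAA. The windows are offset. That of Ly6c1 ends inside the stretch that lines up with the downstream GAGGAAG of Ly6c2, at base 27 after the start. It could therefore not show whether Ly6c1 has that copy, and the counts are no contrast of the 2 promoters. Among 32851 promoter windows of the same length, 13.6% held TATAAA and 13.6% held GAGGAAG on either strand. Neither window held TTCNNNGAA, the letters of the interferon-responsive GAS element, which occurred in 8.30% of all windows on either strand. The letters searched were chosen with these sequences in view, and a match is only a description.

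On the first principal component of all features (49.6% of the variance) the MLPG arrays lay at 12.4, 15.0 and 22.2, and the GP arrays at -30.1, -6.37 and -13.1, so GP 1 was the array farthest from the others.

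The 5 measured genes formed a bright pair and a dim trio. Ly6c1 and Ly6e were among the brightest probes of the array in both populations, while Ly6d, Ly6i and Ly6k lay near the median of all probes, 179.3, or below it. The bright pair had higher values in every MLPG array than in any GP array. Ly6d and Ly6i had lower values in every MLPG array, and Ly6k overlapped between the groups. Of all 45281 probes, 15.0% showed no overlap between the groups, 7.93% with MLPG higher and 7.04% with MLPG lower. No member passed the gene test (limma, Benjamini-Hochberg adjusted p under 0.05 over all features), which called 79 of 15440 features, 0.512%.

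**Figure D1:**
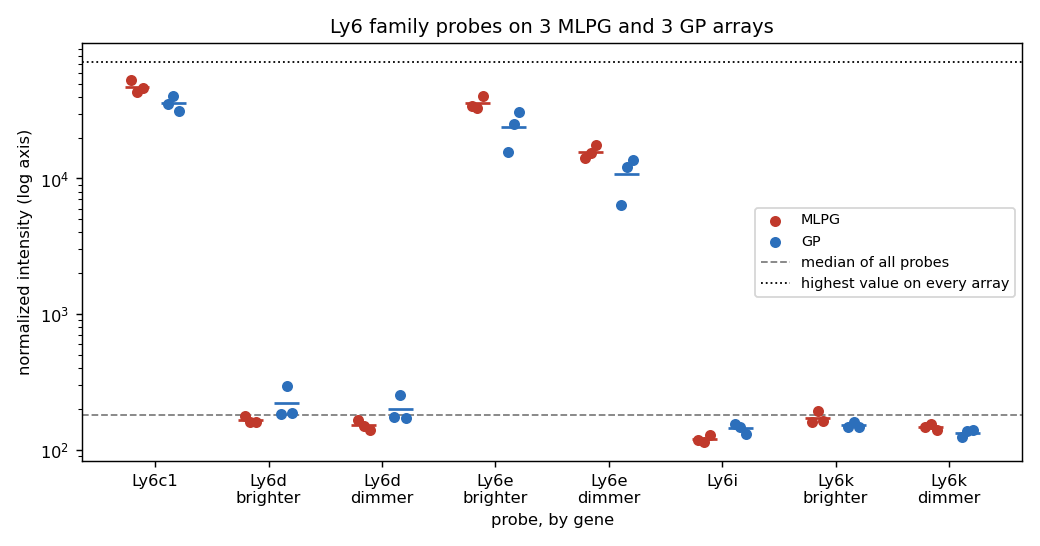
Normalized intensity (log axis) of the 8 Ly6 family probes on each array, MLPG in red at the left and GP in blue at the right of each probe; short lines are means of 3 arrays. Ly6c1 and Ly6e sit at 6396 or more, far above the median of all probes, and the other 5 probes sit at or below 293.1.

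Ly6c1 is 1 of the pair of genes that encode the surface antigen by which the groups were defined. The value of its probe is therefore a description and no independent check of the labels. Its intensity was 53060, 43070 and 46620 on MLPG arrays 1 to 3, against 35390, 40410 and 31550 on GP arrays 1 to 3. The ranges did not overlap, and the nearest values were those of MLPG 2 and GP 2. The means were 47580 ± 5060 in MLPG and 35790 ± 4440 in GP (SD, n = 3 each), a log2 difference, MLPG minus GP, of 0.41 ± 0.12 (SE), or 1.33-fold with a 95% interval of 1.09 to 1.62. This did not pass the gene test (limma adjusted p = 0.20, unadjusted p = 0.0102), and with the replicate number as a block the adjusted p was 0.10. Without GP replicate 1 the log2 difference was also 0.41 (limma adjusted p = 0.36). The probe was bright in the Ly6C high and in the Ly6C low sort.

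On each array the Ly6c1 probe ranked among the brightest of 45281. The ranks were 153, 208 and 180 in MLPG and 276, 228 and 330 in GP, where 1 is the brightest. The highest value on every array was 71670, which bounds how far a bright probe can differ. Of 194 features at least as bright, 2 differed by as much as Ly6c1 in either direction, 0 were called (limma), and the median absolute log2 difference of the bright end was 0.04. Compression near the top of the scale was not tested.

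Ly6e, a GPI-anchored protein of many blood cells that is known to restrict entry of some viruses, was the other bright member. Its brighter probe read 34060, 33050 and 40410 in MLPG, against 15550, 25390 and 30960 in GP. The groups did not overlap, and GP 1 was the lowest of the 6 arrays. The log2 difference was 0.63 ± 0.23 (SE), 1.55-fold with a 95% interval of 1.07 to 2.24 (limma adjusted p = 0.27, unadjusted p = 0.026). It was larger than that of Ly6c1 here, but smaller without GP replicate 1 (0.35 for Ly6e and 0.41 for Ly6c1) and with array weights (0.44 for Ly6e and 0.50 for Ly6c1). The dimmer Ly6e probe read 14070, 15440 and 17790 in MLPG, against 6396, 12080 and 13620 in GP. It showed the same order of the groups and the same lowest array, with a log2 difference of 0.63 ± 0.24 (SE) in a fit over all 45281 probes.

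The Ly6e values rested in part on GP 1. Without GP replicate 1 the log2 difference was 0.35 for the brighter probe (limma adjusted p = 0.42) and 0.29 for the dimmer (0.58 over all probes), and without GP replicate 3 it was 0.85 and 0.84. With the replicate block it did not pass over the 15440 features (limma adjusted p = 0.066). It did pass with the block over all probes, where the brighter and the dimmer probe had adjusted p of 0.029 and 0.033 in limma, and with the block and no filter on dim probes (0.041). For the brighter probe these combinations of the block with another probe choice or filter were chosen after the data had been seen. Differences between same-numbered arrays, MLPG minus GP, were 1.13, 0.38 and 0.38 for the brighter Ly6e probe and 0.58, 0.09 and 0.56 for Ly6c1, so the pair with the largest Ly6e difference was number 1, and number 2 gave the smallest Ly6c1 difference.

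**Figure D2:**
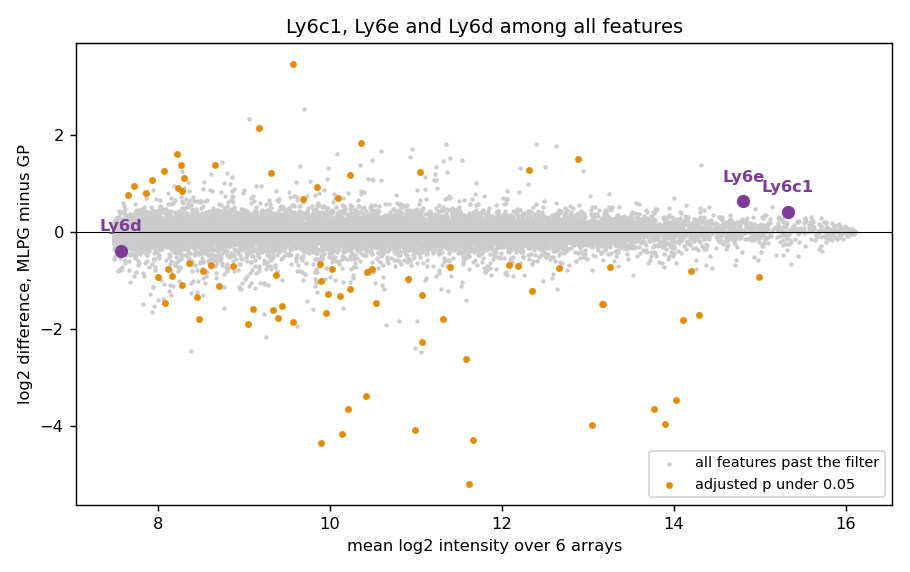
Log2 difference, MLPG minus GP, against mean log2 intensity over 6 arrays for the 15440 features past the filter; orange points have adjusted p under 0.05 and purple points are Ly6c1, Ly6e and Ly6d. Ly6c1 (15.33, 0.41) and Ly6e (14.81, 0.63) lie above the narrow band of bright features, and Ly6d (7.57, -0.38) lies at the dim edge.

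Ly6d, a marker of early lymphoid cells and B cells, was dim in both populations. Its brighter probe read 176.6, 160.6 and 161.5 in MLPG, against 184.4, 293.1 and 187.6 in GP. The 3 MLPG arrays were below the median of all probes, and GP 2 alone stood clearly above it. The log2 difference was -0.38 ± 0.18 (SE), with a 95% interval of -0.79 to 0.02 (limma adjusted p = 0.37). The dimmer Ly6d probe read 166.1, 149.3 and 139.8 in MLPG, against 175.1, 254.2 and 171.9 in GP, again with GP 2 the highest. Without GP replicate 2 the difference of the brighter probe was -0.16 (limma adjusted p = 0.42).

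Markers of other cells were read on the same arrays because Ly6d is a lymphoid gene. The 5 measured of 12 B cell and B cell progenitor markers summed to 2340 to 2356 in MLPG and 1885 to 2322 in GP, and 0 passed the test in limma, with 0 at an unadjusted p under 0.05. The 5 measured of 9 plasmacytoid dendritic cell markers summed to 3558 to 4663 in MLPG and 2716 to 5253 in GP, with the highest sum on GP 2. Siglech, a receptor of plasmacytoid dendritic cells, read 296.3, 385.5 and 260.7 in MLPG, against 380, 676 and 445.8 in GP (limma adjusted p = 0.25, and 0.024 with the replicate block). Of the other 4, Tcf4 and Pacsin1 had differences above 0 (0.29 and 0.07) and Spib and Cox6a2 below it (-0.03 and -0.16). The 7 measured of 10 stem and progenitor cell markers summed to 8098 to 9690 in MLPG and 8359 to 14620 in GP, again highest on GP 2. Of the 7, 1 was called in limma, Gata2, lower in MLPG, beside 0.512% of all features. Gata2 stayed called in 2 of the 6 fits that left out 1 array. Each of these 3 sums came mostly from 1 bright gene. On GP 2, Cd79b gave 1334 of the B cell sum, Tcf4 3407 of the plasmacytoid sum and Kit 11580 of the stem and progenitor sum. The 8 measured of 10 eosinophil markers summed to 4972 to 8167 in MLPG and 56730 to 133700 in GP, also highest on GP 2. Prg2 gave 71150 of the GP 2 sum. In limma 5 of the 8 were called lower and 1, Rnase2a, higher (log2 difference 1.25, adjusted p = 0.012), beside 0.512% of all features. The part of such cells in the Ly6d value was not tested, and in bulk RNA fewer cells of a type and less RNA per cell cannot be told apart.

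Ly6i, a further member of the family in the chromosome 15 cluster, read 118.2, 113.9 and 128.7 in MLPG, against 154.2, 148 and 131.5 in GP. All 6 values lay below the median of all probes, and 12.0% of probes had a lower mean. The log2 difference over all probes was -0.26 ± 0.10 (SE) (limma adjusted p = 0.37, unadjusted p = 0.0205). Detection calls were not used here, so whether this probe reads above background was not tested.

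Ly6k, a gene known from germ cells, was dim on both of its probes. The brighter read 159.2, 192.8 and 163.1 in MLPG, against 148.2, 161.7 and 146.2 in GP, and the dimmer 148, 156 and 140.2 in MLPG, against 123.4, 137.6 and 141.2 in GP. The groups overlapped on both probes. Log2 differences were 0.17 with a 95% interval of -0.05 to 0.40 and 0.14 with an interval of -0.06 to 0.35 (limma adjusted p = 0.64 and 0.68 over all probes).

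The filter on dim probes passed 4 of the 8 probes and 3 of the 6 genes, Ly6c1, Ly6e and Ly6d. Of the 8 probes, 3 were higher in MLPG without overlap of the groups, 3 were lower without overlap, and 2 overlapped. An unadjusted p under 0.05 was reached by 6 of the 8 member probes and by 10.1% of all probes, and the probes of Ly6e and of Ly6d share a gene. None of the 8 passed the adjusted threshold in the fit over all probes, where 193, 0.426%, did (limma).

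Some T cells and endothelial cells also carry Ly6C, and their markers were read beside Ly6c1. The 5 measured of 11 T and NK cell markers summed to 40160 to 46870 in MLPG and 31160 to 43060 in GP, nearly all of it from Nkg7, and 0 of them passed the limma test. Before adjustment 2 had p under 0.05, both lower in MLPG. Cd3d, a chain of the T cell receptor complex, read 164.3, 192.9 and 220.3 in MLPG, against 362.9, 310.1 and 312 in GP (limma adjusted p = 0.054, and 0.021 with the replicate block). The 7 measured of 10 endothelial markers summed to 3659 to 4656 in MLPG and 3138 to 4402 in GP. None passed the limma test, and 1, Pecam1, had a p under 0.05 before adjustment (log2 difference 0.66, limma adjusted p = 0.26, and 0.016 with the block). Of the 7, 5 lay below 0, and Pecam1 was 1 of the 2 above it. Cdh5, the cadherin of endothelium, read 181.8 to 215.4 in MLPG and 183.6 to 224.2 in GP, near the median of all probes. The 8 measured of 10 erythroid markers summed to 1552 to 4036 in MLPG and 4455 to 8717 in GP. Hba-a1 gave 5869 of the 8717 on GP 1 and 1951 of the 4036 on MLPG 1. None of the 8 passed the limma test, 6 had p under 0.05 before adjustment, all lower in MLPG, and 4 were called lower with the block. Over all features 14.7% had p under 0.05 before adjustment in limma and 4.08% were called with the block, in either direction. No marker was listed at 0, since background remains in the values, and the part of these cells in the Ly6c1 and Ly6e values was not tested.

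**Figure D3:**
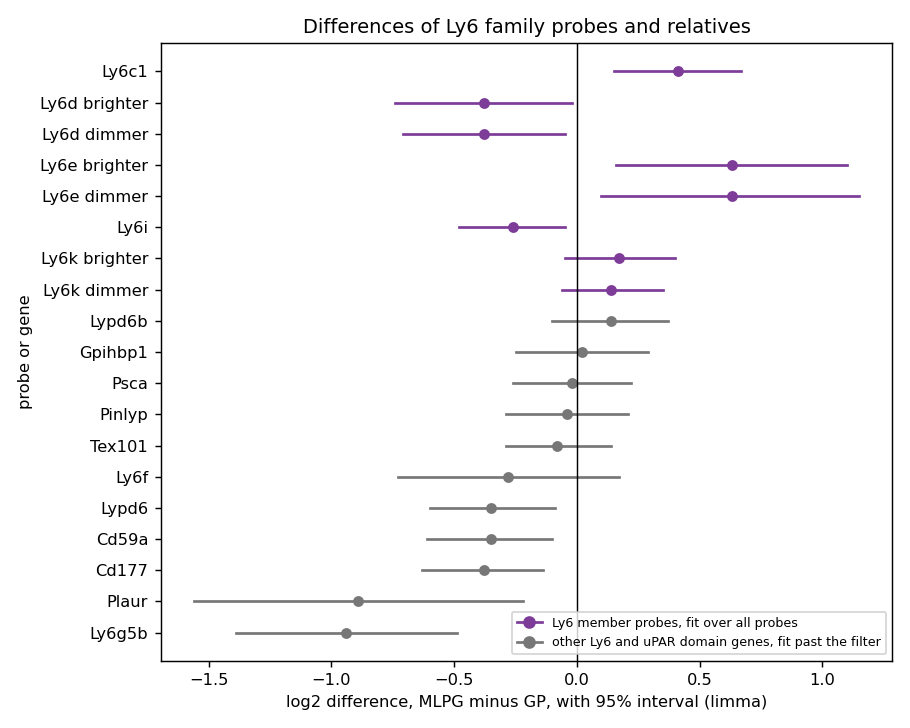
Log2 differences, MLPG minus GP, with 95% intervals (limma), for the 8 Ly6 family probes (purple, fit over all probes) and the 11 other Ly6 and uPAR domain genes past the filter (grey, fit over 15440 features). Both Ly6e probes and the Ly6c1 probe lie right of 0 with intervals clear of it. Both Ly6d probes and the Ly6i probe lie left of 0, also with intervals clear of it in this fit. In the fit over 15440 features the interval of the brighter Ly6d probe was -0.79 to 0.02. Ly6g5b, Plaur, Cd177, Cd59a and Lypd6 lie left of 0.

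The same protein fold, a compact domain held by disulfide bonds, occurs in a wider set of genes. Of 32 such genes listed, 25 had a probe and 11 passed the filter. None was called (limma), against 0.512% of all features, while 5 had an unadjusted p under 0.05, all lower in MLPG. Over all features 14.7% had such a p, in either direction. The median log2 difference of the list was -0.28, beside 0.01 over all features. It was -0.05 with no filter on dim probes and -0.13 without GP replicate 1.

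Cd177, a GPI-anchored neutrophil antigen, was the brightest of them and read 44300, 53060 and 44960 in MLPG, against 66790, 57600 and 60990 in GP. Like Ly6c1 it lay near the top of the scale, with a difference of the opposite sign, a log2 difference of -0.38 (limma adjusted p = 0.18). With its 2 probes averaged the Cd177 difference was -0.57 (limma adjusted p = 0.12). Plaur, the urokinase receptor, read 3273, 4622 and 2018 in MLPG, against 6392, 6815 and 4480 in GP, with an overlap between MLPG 2 and GP 3 (log2 difference -0.89, limma adjusted p = 0.23, and 0.013 with the replicate block), and the difference was -0.58 without MLPG replicate 3. Ly6g5b read 283.2, 249.2 and 263.3 in MLPG, against 687.2, 505 and 377.2 in GP, without overlap (log2 difference -0.94, limma adjusted p = 0.099, and 0.016 with the block). With the block these 2 of the 11 were called, and 4.08% of all features were. Cd59a, an inhibitor of complement, and Lypd6 both differed by -0.35 (limma adjusted p = 0.22 and 0.23), and by -0.59 and -1.10 with a background offset subtracted.

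Ly6f, another gene of the chromosome 15 cluster, read 631.4, 618.8 and 590.9 in MLPG, against 1057, 640 and 611.4 in GP. The difference of -0.28 (limma adjusted p = 0.56) came with 1 high array, GP 1, and was -0.03 without it. Psca, Lypd6b, Gpihbp1, Tex101 and Pinlyp were dim, with differences of -0.02, 0.14, 0.02, -0.08 and -0.04 and adjusted p between 0.59 and 0.97 (limma).

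The patterns of the members over the 6 arrays were set beside each other and beside those of other genes. The root mean square difference between mean-centred log2 profiles was 0.374 between Ly6c1 and Ly6e, 0.424 between Ly6c1 and Ly6d and 0.608 between Ly6d and Ly6e. Likeness was searched among 10933 other genes with a usable symbol. Nearest to Ly6c1 were Tspoap1 at 0.0624, Ttc39c at 0.0645 and Mcf2l at 0.0656, all higher in each MLPG array than in any GP array. Nearest to Ly6e were Inf2 at 0.0765, Atic, an enzyme of purine synthesis, at 0.0922 and Dmkn at 0.0938, all with GP 1 lowest. Nearest to Ly6d were F2, which encodes prothrombin, at 0.0627, Capn5 at 0.0659 and Eml5 at 0.085, all with GP 2 highest. These genes were picked for their likeness over 6 arrays, and no test was made of it.

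**Figure D4:**
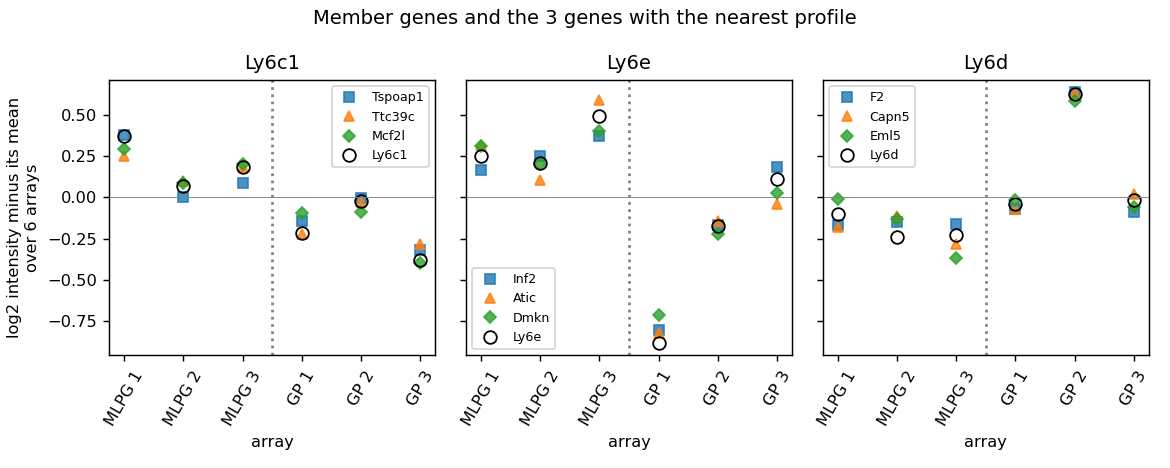
Log2 intensity minus its mean over 6 arrays for Ly6c1, Ly6e and Ly6d (open circles) and for the 3 genes with the nearest profile to each (filled symbols), with MLPG arrays left of the dotted line and GP arrays right of it. Ly6c1 is lowest on GP 3, Ly6e is lowest on GP 1, and Ly6d is highest on GP 2.

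Genes that go with high Ly6C on monocytes were read beside the sort. The lists were chosen with earlier results of these data known, so they are a description and no independent check. Of 13 measured of 17 such genes, 11 were higher in MLPG, beside 7989 of all 15440 features, with a median log2 difference of 0.91. The 2 below 0 were Lgals3 (-0.42, limma adjusted p = 0.23) and Chil3 (-0.14, 0.49), both without overlap of the groups. Called in limma was 1, Klf4, a transcription factor of monocytes (1.84, adjusted p = 0.027), beside 0.512% of all features. At an unadjusted p under 0.05 there were 10 higher and 1 lower, beside 14.7% of all features. With the replicate block 6 were called, all higher, beside 4.08% of all features in either direction. Csf1r, Ccr2, the chemokine receptor by which monocytes leave the marrow, and Ly86, a partner of a Toll-like receptor relative, differed by 1.10, 0.91 and 1.81 and did not pass (limma adjusted p = 0.072, 0.11 and 0.13; with the block 0.010, 0.040 and 0.013). Of 11 measured mature neutrophil genes, all 11 had a difference below 0, beside 7451 of all 15440 features, with a median of -0.63. Ltf, S100a8, Ngp and S100a9 lay near 0 (-0.02, -0.05, -0.07 and -0.10). Called in limma were 3 of the 11, Fpr2 (-1.70, adjusted p = 0.018), Mmp9 (-2.62, 0.023) and Retnlg (-1.82, 0.038), beside 0.512% of all features. With the block 5 of the 11 were called, Cxcr2 (adjusted p = 0.016) and Itgam (0.025) besides these 3, against 4.08% of all features. Klf4, Fpr2 and Mmp9 each stayed called in 2 of the 6 fits that left out 1 array, and Retnlg in 1 of 6.

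GPI anchors are added to Ly6 proteins in the endoplasmic reticulum, and the genes of that machinery were read next. The median log2 difference of 22 measured of 27 genes was 0.11, or 0.07 without GP replicate 1. In limma 0 were called and 1 had an unadjusted p under 0.05, beside 14.7% of all features. That 1 gene was Pigf, which acts late in anchor assembly, at 1079, 1108 and 1267 in MLPG, against 728.5, 850.5 and 1051 in GP (log2 difference 0.41, adjusted p = 0.26). Pigb, Pign and Pigk differed by 0.24, 0.16 and 0.16 (limma adjusted p = 0.40, 0.44 and 0.51).

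Other GPI-anchored surface proteins of blood cells were read beside Ly6c1 and Ly6e. Of 12 measured of 14, 10 had a difference below 0, beside 7451 of all 15440 features. The median was -0.45, beside 0.01 over all features. An unadjusted p under 0.05 in limma was reached by 1 higher and 9 lower genes, beside 14.7% of all features. Cd55, an inhibitor of complement, was the 1 called, against 0.512% of all features. It read 215.7, 215 and 207 in MLPG, against 582.9, 377.9 and 425.2 in GP, a log2 difference of -1.10 (limma adjusted p = 0.033), and it stayed called in 2 of the 6 fits that left out 1 array. Bst1 differed by -0.69 (limma adjusted p = 0.10) and Cd48 by 0.44 (0.16), and with the block these had adjusted p of 0.046 and 0.048. With the block 1 gene of the list was called higher and 3 lower, beside 4.08% of all features. Cd177, Cd59a and Plaur are counted in both lists.

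**Figure D5:**
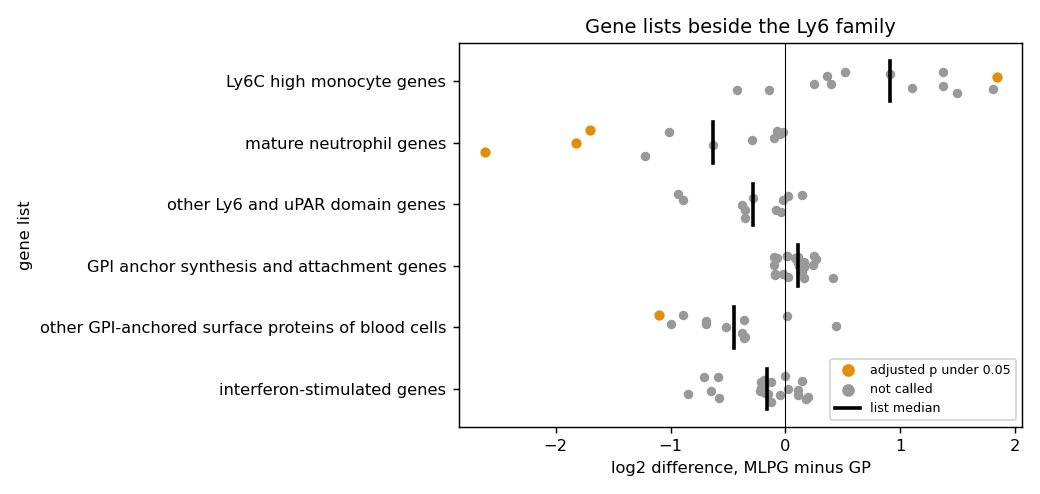
Log2 differences, MLPG minus GP, of the measured genes of 6 lists, 1 point per gene, with the list median as a black line and called genes in orange. Monocyte genes lie mostly right of 0 (median 0.91), and mature neutrophil genes (-0.63) and other GPI-anchored proteins (-0.45) lie mostly left of it.

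Interferon-stimulated genes, the set to which Ly6 genes are known to belong in part, had differences on both sides of 0. Of 24 measured of 30, 17 lay below 0 and the median was -0.16. That median was -0.09 without GP replicate 1 or without MLPG replicate 2, and -0.26 without GP replicate 2. None was called in limma, while an unadjusted p under 0.05 was reached by 1 higher and 3 lower genes. Over all features the share with such a p was 14.7%. Gbp3, a guanylate-binding protein, read 3367, 3616 and 3367 in MLPG, against 1095, 2643 and 1499 in GP (log2 difference 1.08, limma adjusted p = 0.16, and 0.026 with the block). Irf7, Rsad2 and Oas3 differed by -0.59, -0.58 and -0.71 (limma adjusted p = 0.19, 0.20 and 0.23). With the block 1 gene of the list was called higher and 3 lower, beside 4.08% of all features in either direction.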

How the data were processed

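The probe intensity values of 6 Illumina bead arrays (3 MLPG, 3 GP) were taken as the authors deposited them, unlogged. Per the submitters' processing notes GenomeStudio was used; neither a version nor a normalization is stated there. All 6 columns shared 1 distribution (minimum 88.2, median 179.3, maximum 71670), which quantile normalization gives, and background had been left in. The number of arrays limits the precision. A second table, with 12 columns headed by numbers that match no label, was not used.

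Symbols came from the platform annotation (34885 probes with 1 symbol, 18 with several, 10378 with none); 34807 Entrez identifiers matched RefSeq genes of GRCm38.p6, and 0 symbols changed. Values were tested on the log2 scale with limma 3.58.1 in R 4.3.3 (lmFit, eBayes), MLPG minus GP. Probes with a mean log2 above the median, 7.48, were kept, the brightest per gene, which gave 15440 features and 11348 named genes. Dim members were read from a fit over all probes. Promoter windows were aligned with Biopython 1.88, end gaps free. The test was tried on simulated arrays.

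Same-numbered arrays deviated together, with correlations of 0.38, 0.30 and 0.47 over features, all above the minimum of 0.1, so the replicate number was also fitted as a block. The pairing was read from the data, and p-values with it may be too small.

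The members and the lists were chosen with earlier results of these data known. Named were every member probe, each Ly6 or uPAR relative past the filter, up to 4 genes per list by smallest p, and the 3 nearest profiles per member, clone-like symbols left out of these.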

Additional observations from a re-analysis of the deposited data

How the results depend on the processing

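The Ly6c1, Ly6e and Ly6d differences kept their sign in all alternatives, and the count of called members stayed at 0 except with the replicate block and no filter on dim probes (1, Ly6e) or with the block over every probe (1, Ly6e). Ly6c1 lay between 0.33 and 0.50 (limma adjusted p between 0.078 and 0.48), and between 0.33 and 0.50 when 1 array was left out. Ly6e lay between 0.35 and 0.85. Ly6d lay between -1.01, with an offset subtracted, and -0.16, without GP replicate 2. The 79 called features became 146 with no filter, 193 with every probe its own feature, 3 with a background offset subtracted, 220 with array weights and 630 with the replicate block. With 1 array left out they ranged from 2 to 348: 2, 3 and 2 without MLPG replicates 1, 2 and 3, and 92, 348 and 25 without GP replicates 1, 2 and 3. The 12 called genes of the lists became 1 with the offset subtracted, 21 with array weights and 35 with the block, and ranged from 1 to 26 with 1 array left out. The cause was not tested. Differences near 0 changed sign: Gpihbp1 to -0.01 with the offset and -0.03 with array weights, and with 1 array left out Gpihbp1 ranged from -0.08 to 0.13, Psca from -0.09 to 0.07 and Pinlyp from -0.14 to 0.02. Probes below the median of all probes limit Ly6i, Ly6k and Ly6d, whose differences with the offset subtracted were -0.60 for Ly6i and 0.58 and 0.69 for Ly6k. The replicate block changed no other call among the members.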
